A study of Mus musculus with 48 samples.

Results

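The 10 genes described here are Bcar1, Trp53bp1, Rab11fip5, Efs, Gpr179, Tubgcp4, Cenpf, Nedd9, Fip1l1 and Magel2, whose mRNAs were recovered by HA-antibody beads from mouse embryonic stem cells that carry no HA tag. They are 10 of the 20171 genes in the deposited count table. They were chosen by name for a high ratio of immunoprecipitate (IP) over input in the untagged cells, so the untagged values below are a description and carry no test. The comparisons that were tested use only the libraries of tagged cells.

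RNA was sequenced from cleared lysates (inputs) and from the material that HA magnetic beads held back (IPs). Each of 16 combinations of 4 genotypes, 2 fractions and 2 experiments, numbered 3 and 4, had 3 libraries from separate dishes, 48 in all. All cells came from a 129S6/SvEvTac stem cell line with the GFP_5xT71BS reporter, called yGlob, and a stably transfected FLAG-Cas9 with Blasticidin resistance. The untagged control was that line itself. The second genotype, HA-Tnrc6a, carried an HA-AVI tag on Tnrc6a. The other two were HA-AVI-Tnrc6a cells labelled Ago2-/- and Upf1-/-. The labels do not say how many clones stand behind a genotype, so p-values measure the spread between dishes and not between clones. Nor do they measure the spread between experiments, since dishes were compared within each experiment.

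An HA tag is a short viral peptide that a commercial antibody recognises, and it is added to a protein so that the protein and the RNA bound to it can be pulled down. Tnrc6a is a GW182 protein that Argonaute proteins such as Ago2 bring to microRNA targets, where it recruits deadenylases. An RNA found on the beads in untagged cells came there without the tagged protein, which is why such cells serve as the background control.

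Depth was 15383953 to 19595405 counts per input and 11471544 to 18344233 per IP in experiment 3. In experiment 4 it was 26458831 to 37179105 per input and 25724085 to 73845953 per IP. The highest IP depth was that of 1 Ago2 knockout library, whose group also held IPs with 30715799 and 34464657 counts. Levels are given as CPM, each count set against its library's total after TMM scaling of the 48 libraries. In the inputs, all 10 embryonic stem cell markers were present, with a summed level of 7684 to 9112 CPM, while 4 of 6 fibroblast or feeder markers were in the table and summed to 27.3 to 57.4 CPM. The 5 endoderm markers summed to 6.13 to 7.84 CPM in Ago2 knockout inputs, below the inputs of every other genotype. They summed to 29.0 to 33.9 CPM in HA-Tnrc6a inputs, 10.1 to 34.5 CPM in untagged inputs and 11.8 to 48.5 CPM in inputs of cells labelled Upf1 knockout, which overlapped one another. These ranges are by genotype and are not split by experiment. The tag was checked by Tnrc6a mRNA itself, which averaged 26548 CPM in the HA-Tnrc6a IPs of experiment 3 and 10684 CPM in those of experiment 4, against 71.2 and 99.8 CPM in untagged IPs. In the inputs, Ago2 mRNA was lower in the Ago2 knockout (94.6 and 129.9 CPM in experiments 3 and 4) than in HA-Tnrc6a cells (207 and 316 CPM). Upf1 mRNA was not lower in the cells labelled Upf1 knockout, at 123 and 139 CPM against 77.6 and 98.5 CPM. A count table does not show whether that mRNA still encodes Upf1 protein, so those libraries are named by their label throughout.

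The 10 mRNAs made up between 0.0462% and 0.0647% of all counts in the 24 inputs. In the untagged IPs of experiment 3 they made up 10.3% to 14.1%, and Bcar1 alone 4.82% to 7.88%. The tagged IPs of the same experiment held 3.55% to 6.01%. In experiment 4 the share was 1.68% to 3.42% in untagged IPs, 1.56% to 2.26% in HA-Tnrc6a IPs, 1.41% to 2.86% in the IPs of cells labelled Upf1 knockout, and 1.07% to 1.41% in Ago2 knockout IPs. Each IP library therefore stood above each input library, and untagged and tagged IPs did not overlap in experiment 3 but did in experiment 4.

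**Figure D1:**
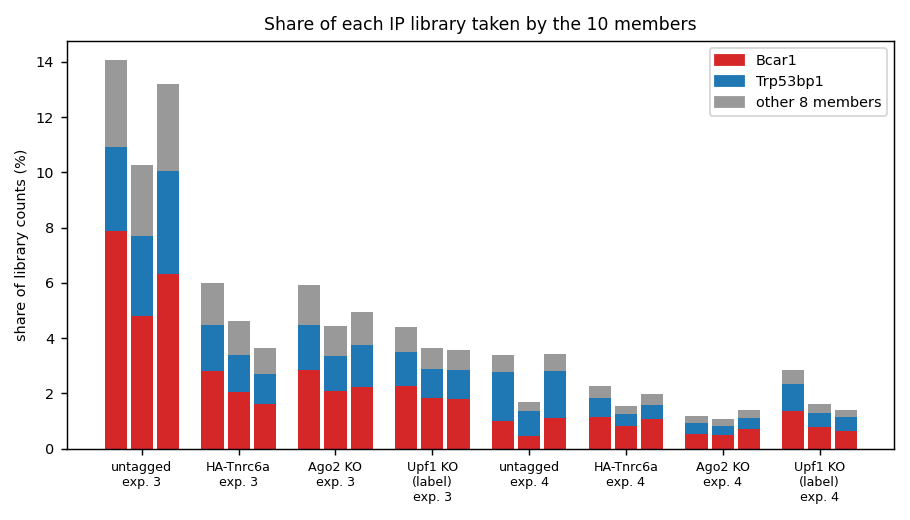
Share of all counts, in percent, that the 10 mRNAs take in each of the 24 IP libraries, 1 bar per library, with Bcar1 and Trp53bp1 in colour and the other 8 genes in grey. The 3 untagged IPs of experiment 3 reach 10.3% to 14.1%, above the 3.55% to 6.01% of the tagged IPs beside them, and all experiment 4 bars lie at or below 3.42%.

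The largest fitted ratio in untagged cells belonged to Bcar1, also known as p130Cas, a docking protein that links integrin and Src signalling to the cytoskeleton. The gene lies on chromosome 8 at 111710474 to 111743849 on the minus strand (GRCm38). Its inputs were even, with a lowest, median and highest value of 41.4, 47.3 and 51.9 CPM over the 12 libraries of experiment 3. The untagged IPs of that experiment held 90867, 53169 and 71046 CPM, a mean 1431-fold above their inputs. All 9 tagged IPs lay below them, at 18195 to 34547 CPM with a median of 24238. In experiment 4 the untagged IPs held 9562, 4397 and 10719 CPM, and the 9 tagged IPs spanned 5197 to 15994 CPM around a median of 8827, so the groups overlapped.

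Efs and Nedd9 belong to the same Cas family of scaffold proteins, which have an SH3 domain and a region rich in phosphorylated tyrosines. Untagged IPs of experiment 3 held 5542, 3633 and 4331 CPM of Efs, against 1054 to 2728 CPM in the tagged IPs and a mean of 13.3 ± 1.09 CPM (SD, n = 3) in their own inputs. In experiment 4 the untagged IPs held 429, 208 and 448 CPM, the lowest of which lay below the tagged range of 248 to 599 CPM and the other two inside it. Nedd9, the member with the lowest level per kilobase in 7 of the 8 IP groups, was scarce in the lysate, where its 3 untagged inputs of experiment 3 had 0.365, 0.786 and 0.236 CPM from 4 to 16 counts. Its untagged IPs had 44.5, 30.9 and 33.8 CPM in experiment 3 and 3.65, 2.18 and 3.19 CPM in experiment 4. The tagged IPs of Nedd9 spanned 9.97 to 34.5 CPM and then 3.33 to 10.5 CPM, overlapping the untagged ones in both experiments.

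Trp53bp1 encodes 53BP1, which binds chromatin at DNA double-strand breaks and favours end joining over resection. It had the second highest untagged ratio. Untagged IPs held 34979.7, 31896 and 41879.9 CPM in experiment 3, all above the tagged range of 11533 to 20147 CPM. In experiment 4 they held 16807, 8340.5 and 16196 CPM, where the tagged range was 3657 to 11367 CPM and only the lowest untagged IP fell inside it. The untagged mean was 2.36 times the tagged mean in experiment 3 and 2.35 times in experiment 4.

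Tubgcp4 codes for a subunit of the gamma-tubulin ring complex, which nucleates microtubules. Its gene runs from 121170643 to 121198770 on the plus strand of chromosome 2 (GRCm38) and shares 3936 bases with Trp53bp1, which lies on the minus strand from 121194835 to 121296354. The library kit was stranded, but whether counting used strand is not given in the sources used here, so reads of one gene may be counted for the other. Tubgcp4 counts were 50.4% to 66.7% of Trp53bp1 counts in the inputs and 6.88% to 9.84% in the IPs. Untagged IPs held 3443, 2406 and 2982 CPM of Tubgcp4 in experiment 3 and 1258, 641 and 1230.3 CPM in experiment 4, against 942 to 1594 and 287 to 908 CPM in tagged IPs. Its recovery is therefore uncertain as a property of its own mRNA. Neither of 2 other genes that overlap this pair was recovered in untagged cells, with a log2 ratio of -0.64 for Map1a and -0.08 for Zscan29.

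Rab11fip5 encodes an adaptor of the small GTPase Rab11 in endosome recycling. Its inputs averaged 7.20 ± 0.475 CPM (SD, n = 3) in untagged cells of experiment 3, and the matching IPs held 3661, 2925 and 3606 CPM, 472 times as much. Tagged IPs ran lower, from 1176 to 2260 CPM. The order turned in experiment 4, where untagged IPs held 161, 80.9 and 179.7 CPM and all 9 tagged IPs lay above them, at 231 to 803 CPM. Fip1l1, a subunit of the machinery that cleaves and polyadenylates pre-mRNA, showed the same turn. Its untagged IPs of experiment 3 held 9721, 6090.0 and 6596 CPM against a tagged range of 1103 to 4752, and in experiment 4 they held 577, 295 and 537 CPM against 656 to 2396. Lnx1, which overlaps Fip1l1 on the opposite strand, had an untagged log2 ratio of 2.01.

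Cenpf, a large coiled-coil protein of the mitotic kinetochore, was the only one of the 10 whose untagged IPs stayed above every tagged IP in both experiments. It had 13479.6, 12969 and 17410.5 CPM in untagged IPs of experiment 3 and 3263, 1823 and 3520 CPM in those of experiment 4, where tagged IPs reached at most 8055 and 1542 CPM. Of all genes, 22.0% had this order in experiment 3 and 26.1% in experiment 4. The share with it in both was not counted, so the order does not set Cenpf apart from other genes. The remaining members are genes with little RNA in these cells. Gpr179, an orphan receptor known from retinal bipolar cells, had 0.593 to 2.27 CPM in the inputs of all groups, and 1 of 5 retina markers was in the table. Its untagged IPs held 359.6, 278 and 364 CPM and then 22.1, 12.1 and 22.4 CPM. Magel2, an imprinted ubiquitin ligase regulator of the endosomal WASH pathway, had 85.3, 50.0 and 75.1 CPM in untagged IPs of experiment 3 and 6.35, 3.59 and 8.25 CPM in those of experiment 4, from inputs of 0.792 to 1.50 CPM. The lowest untagged IP of experiment 4 was the same library for all 10 genes.

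**Figure D2:**
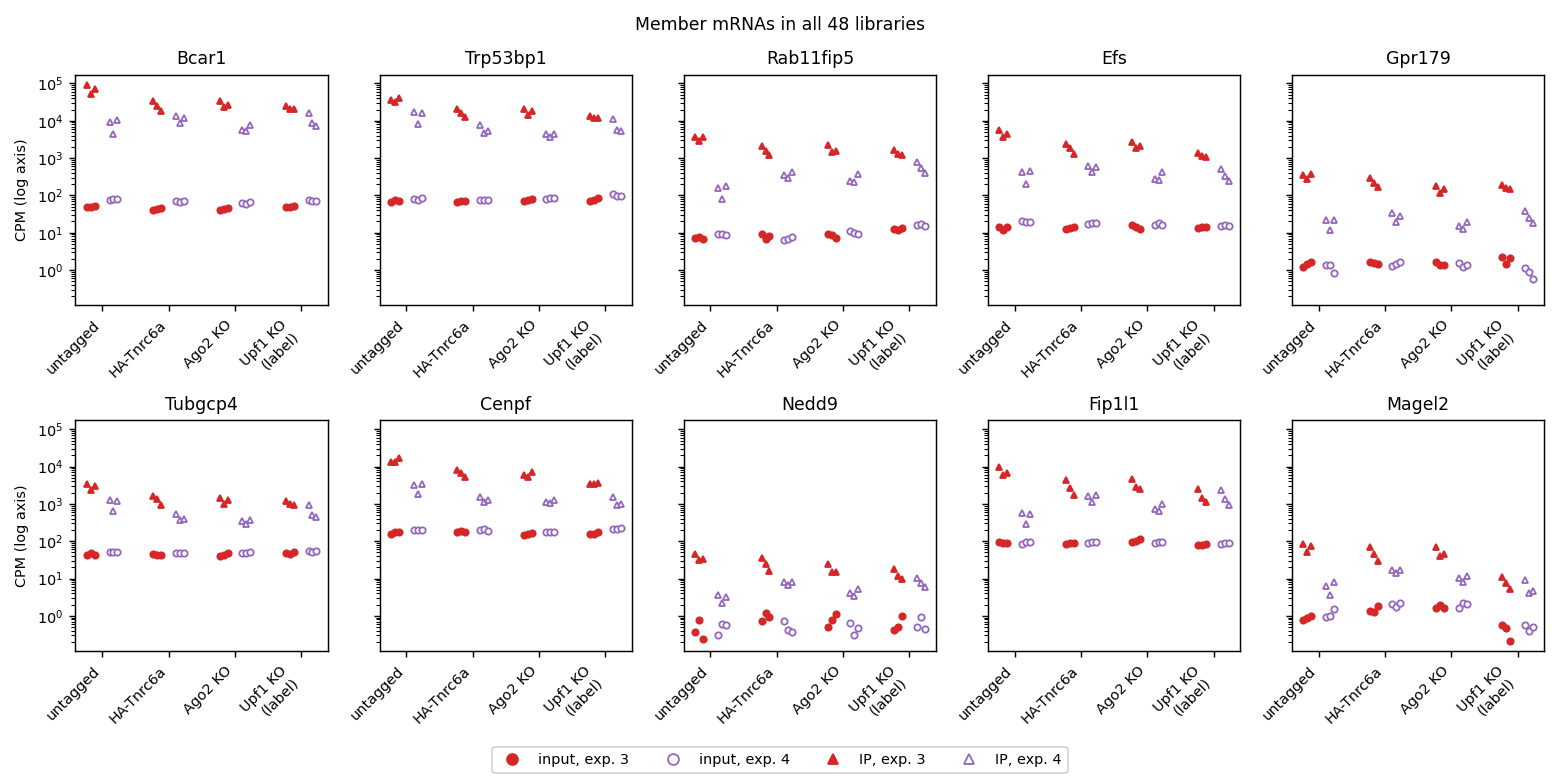
Level of each of the 10 mRNAs in all 48 libraries, in CPM on a log axis, with inputs as circles and IPs as triangles, filled red for experiment 3 and open purple for experiment 4. The 3 IPs of each group lie above their 3 inputs for every gene, genotype and experiment, and tagged IPs of Bcar1 step down from 18195 to 34547 CPM in experiment 3 to 5197 to 15994 CPM in experiment 4.

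The fitted log2 ratio of IP over input in untagged cells ran from 6.05 (Tubgcp4) to 10.48 (Bcar1) in experiment 3, with a median of 7.14. In experiment 4 it ran from 2.35 (Fip1l1) to 7.40 (Trp53bp1), with a median of 3.99. The median of all 19299 genes with a value was -0.01 and -0.04. Averaged over both experiments, Magel2 (4.33), Fip1l1 (4.35) and Nedd9 (4.40) lay just inside the chosen set. Among genes with a mean of at least 3 on the log2 CPM scale, the next below were Incenp (3.72), Atad2 (3.60), Ankra2 (3.38), Sptbn1 (3.28) and Dnttip2 (3.25), and no gene outside the set that met this limit lay above Magel2. The limit was met by 8 of the 10 members, since Magel2 (2.15) and Nedd9 (1.39) have lower mean levels. Among genes under the limit, 3 features with very few counts lay above Magel2, namely Gm38122 (5.63), Mir705 (5.44) and an unnamed gene (4.83). Mir705 lies inside Rab11fip5.

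Genes related to the 10 by family or complex were read from 8 lists, which held 53 other genes with a value. In untagged cells their log2 ratios ran from -0.37 to 0.66 with a median of 0.04, none of them over 1. Cass4, the remaining Cas scaffold, was at -0.16. Rab11fip1 to Rab11fip4 lay between -0.31 and 0.12, with a median of -0.03 over the 4 genes. The other gamma-tubulin ring genes had a median of -0.02 over 8 genes, the 53BP1 pathway -0.11 over 9, Cenpf partners and outer kinetochore genes 0.19 over 10, cleavage and polyadenylation factors 0.05 over 11, and MAGE family and MUST complex genes 0.06 over 9. Of the Gpr179 complex, 1 of 5 partners was measured, at -0.08. The lists and the members were named together, so their distance in this ratio carries no test.

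**Figure D3:**
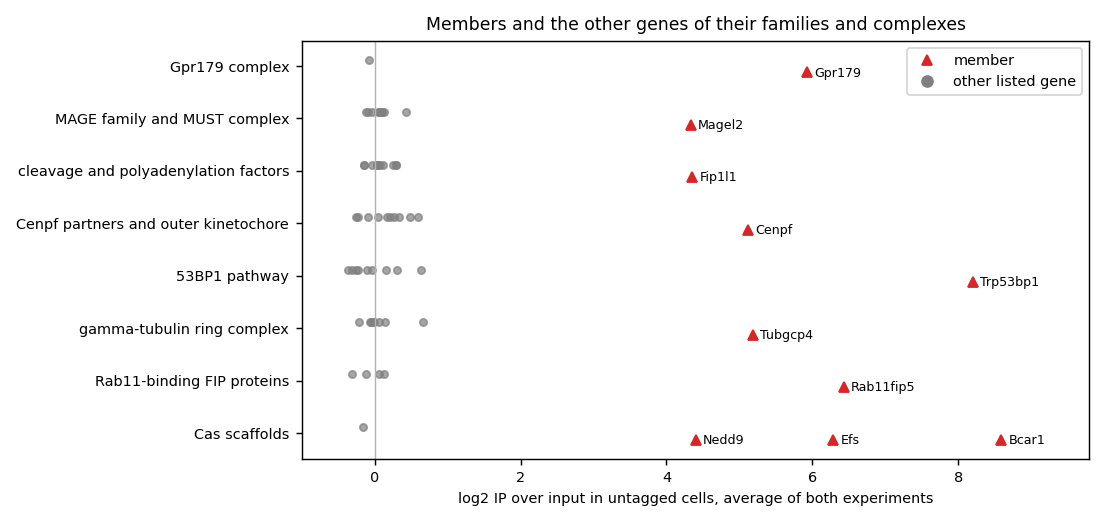
Log2 IP over input in untagged cells, averaged over both experiments, for the 10 members (red triangles) and 53 other genes of their families and complexes (grey circles), 1 row per list. The other genes lie between -0.37 and 0.66, and the members between 4.33 and 8.59.

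The first tested question was whether the same mRNAs also rose in IPs of tagged cells, in a fit that left the untagged libraries out. Untagged and tagged IPs of an experiment may share background, so this test is not independent of the choice of the members. In HA-Tnrc6a cells 10 of 10 were higher in the IP than in the input, where 34.1% of all 20139 genes tested were higher. In the Ago2 knockout 10 of 10 were higher (background 35.6%), and in cells labelled Upf1 knockout 10 of 10 (background 33.4%). Adjusted p-values of edgeR's quasi-likelihood test with Benjamini-Hochberg adjustment were at most 1.93e-10 over the 10 genes and 3 genotypes. The members' median log2 ratios were 5.07, 4.56 and 4.84, against -0.09, -0.05 and -0.13 for all genes tested. All 10 were also higher in each experiment's own contrast, taken from the same fit of the 36 tagged libraries.

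Bcar1 had the highest ratio of any gene in each tagged genotype, at 8.25 ± 0.22 (SE) in HA-Tnrc6a cells, 7.95 ± 0.21 in the Ago2 knockout and 7.97 ± 0.21 in cells labelled Upf1 knockout. The mRNA of the tagged protein, Tnrc6a, stood at 7.73 ± 0.17, 7.83 ± 0.17 and 7.55 ± 0.17, and the difference between the 2 genes was not tested. Trp53bp1 ranked 4 among all genes in each of the 3 genotypes, at 7.04, 6.71 and 6.74. In HA-Tnrc6a cells Rab11fip5 had 6.63 ± 0.21, Efs 5.96 ± 0.20 and Gpr179 5.64 ± 0.24, all within the highest 13 genes. Fip1l1 (4.50), Nedd9 (4.27), Tubgcp4 (4.00), Magel2 (3.98) and Cenpf (3.92) followed. They were not set apart from other recovered RNAs there, since 132 genes outside the set lay above the lowest member in HA-Tnrc6a cells, 211 in the Ago2 knockout and 277 in cells labelled Upf1 knockout. Per kilobase of gene length, Bcar1 had the highest mean IP level and Trp53bp1 the second highest among the 10 in all 8 IP groups.

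**Figure D4:**
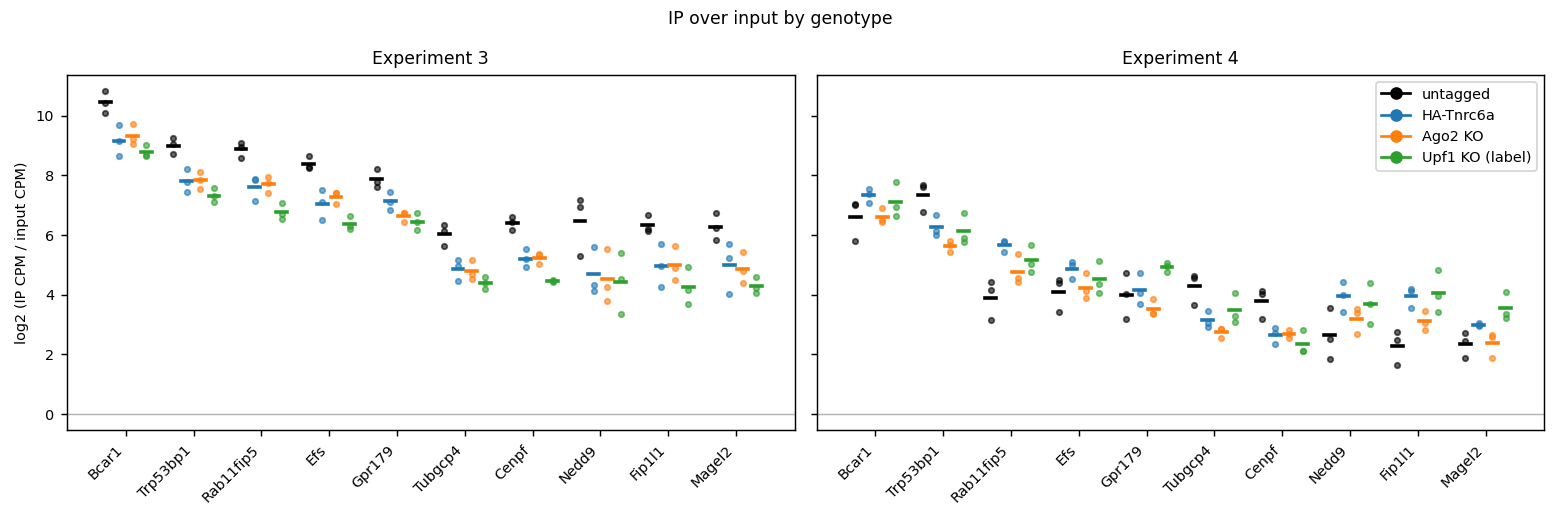
Log2 ratio of IP over input CPM for each member in the 4 genotypes, experiment 3 on the left and experiment 4 on the right, with 1 point for each input and IP of the same number and a bar at the mean of 3. Untagged means (black) are the highest of the 4 genotypes for all 10 genes in experiment 3, and in experiment 4 only for Trp53bp1, Tubgcp4 and Cenpf.

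Set beside the untagged ratios, the tagged ratios were lower in experiment 3 and mixed in experiment 4. The untagged libraries both chose the genes and enter each difference, so these are values with no test. Ratios are relative to the rest of a library and do not give amounts of RNA on the beads. Tagged IPs also held RNA such as Tnrc6a mRNA, at 26548 CPM in HA-Tnrc6a IPs and 71.2 CPM in untagged IPs of experiment 3. The part of such RNA in these differences was not tested. In experiment 3 all 10 genes had a lower log2 ratio in tagged than in untagged cells in each genotype, with a median difference of -1.25 in HA-Tnrc6a cells, -1.20 in the Ago2 knockout and -1.88 in cells labelled Upf1 knockout. In experiment 4 the medians were 0.62, -0.04 and 0.73, with 3, 5 and 3 of 10 genes below the untagged value. Trp53bp1, Tubgcp4 and Cenpf were then still below the untagged value in all 3 genotypes, by -1.10, -1.18 and -1.18 in HA-Tnrc6a cells. Tubgcp4 may repeat Trp53bp1 here and in the other counts of members, because the 2 genes overlap. Rab11fip5 (1.68), Fip1l1 (1.63) and Nedd9 (1.27) were above it in HA-Tnrc6a cells and above it in the other tagged genotypes. The median over all genes lay between -0.12 and -0.06 in these 6 differences. In IP levels, untagged IPs lay above every tagged IP for 7 of 10 genes in experiment 3, as they did for 22.0% of all 20171 genes. In experiment 4 this held for 1 (Cenpf) against 26.1% of all genes, the reverse held for 2 (Rab11fip5 and Fip1l1) against 25.7%, and 7 overlapped, so these shares in experiment 4 were no higher than among all genes.

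The next question was whether loss of Ago2 changed recovery of these mRNAs. None of the 10 passed the test for a lower or a higher ratio than in HA-Tnrc6a cells, where 12.2% of all genes were lower and 8.95% higher. None reached an unadjusted p under 0.05 either, where 32.4% of all genes did, and DESeq2 also called 0. Point estimates were below 0 for 9 of 10, from -0.58 ± 0.42 (Gpr179) to -0.22 ± 0.24 (Efs), while Cenpf stood at 0.01 ± 0.15. Bcar1, at -0.30 ± 0.23, had an interval of 2 SE either side of -0.75 to 0.16. These averages join unlike experiments. In experiment 3, 5 of 10 estimates were below 0, and the range was -0.52 to 0.21 with a median of 0.003. In experiment 4 all 10 were below 0, from -0.89 to -0.00 with a median of -0.66. None passed in either experiment. The median over all genes tested was -0.04 in the average, and the share of all genes below 0 was not counted.

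In cells labelled Upf1 knockout, 1 of the 10 was lower and 0 were higher than in HA-Tnrc6a cells, against 2.53% lower and 1.44% higher among all genes. That gene was Cenpf, which fell by 0.52 ± 0.15 on the log2 scale (edgeR quasi-likelihood, Benjamini-Hochberg adjusted p = 0.0392). The estimate stayed below 0 in every setting run, but the call did not hold in all of them. It was kept with library totals (-0.55, adjusted p = 0.0041), no filter on low counts, a replicate block and DESeq2 (-0.49, adjusted p = 0.027). It was lost in either experiment's own contrast within the same fit (-0.74 and -0.30) and with RLE scaling (-0.49, adjusted p = 0.0597). It was also lost with all 48 libraries or only the groups compared. Removing any 1 of 17 of the 36 libraries lost it too, with adjusted p-values of up to 0.0814. An unadjusted p under 0.05 was reached by 3 of 10 members and by 16.8% of all genes. Rab11fip5 had the lowest estimate, -0.67 ± 0.26 with an adjusted p of 0.176 by edgeR, and the other 8 lay between -0.50 ± 0.24 (Efs) and 0.03 ± 0.41 (Gpr179). These averages join unlike experiments. In experiment 3 all 10 estimates were below 0, from -0.84 to -0.29 with a median of -0.69. In experiment 4, 6 of 10 were below 0, and the range was -0.50 to 0.78 with a median of -0.15.

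Lysate levels of the members were compared to see whether the knockouts changed the RNA on offer. In Ago2 knockout inputs 0 of 10 were called (background 11.0% higher, 9.58% lower), 0 had an unadjusted p under 0.05 (31.9% of all genes did), and DESeq2 called 0. This fit shares 1 estimate of the spread between inputs and the more variable IPs. Fitted on the inputs of these groups alone, Trp53bp1 (0.14), Fip1l1 (0.12) and Rab11fip5 (0.30) were higher and Cenpf (-0.17) was lower, so 3 and 1 of 10, where 15.7% of all genes were higher and 15.2% lower. The 5 endoderm markers were all lower in these inputs, and their part in the input differences was not tested.

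Of the members, 2 differed in the inputs of cells labelled Upf1 knockout, where 25.3% of all genes were higher and 24.6% lower. Rab11fip5 rose, from 9.17, 6.78 and 8.30 CPM in HA-Tnrc6a inputs to 12.6, 12.1 and 13.1 CPM in experiment 3, and from 6.42, 6.68 and 7.73 to 15.9, 16.6 and 15.0 CPM in experiment 4. The groups did not overlap in either experiment, and the log2 difference was 0.92 ± 0.21 (edgeR adjusted p = 0.000761). Magel2 fell, from 1.36, 1.24 and 1.82 CPM to 0.568, 0.464 and 0.216 CPM in experiment 3 and from 2.12, 1.70 and 2.25 to 0.555, 0.399 and 0.498 CPM in experiment 4. Its log2 difference was -1.92 ± 0.45 (edgeR adjusted p = 0.000986), from as few as 4 counts in 1 library. In bulk RNA, fewer cells with the transcript and less transcript per cell cannot be told apart. Both calls were lost in experiment 3 alone (adjusted p = 0.125 for Rab11fip5 and 0.0618 for Magel2, edgeR), while the inputs fitted alone called 4 higher and 2 lower, against 29.5% higher and 29.0% lower of all genes. Of the 5 endoderm markers, 3 were lower and 1 higher in these inputs, and their part in the calls for Rab11fip5 and Magel2 was not tested.

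The IP level of Magel2 was also low in the cells labelled Upf1 knockout. In experiment 3 these IPs held 10.7, 7.80 and 5.23 CPM against 70.5, 46.3 and 30.0 CPM in HA-Tnrc6a IPs, with no overlap. In experiment 4 they held 9.37, 4.10 and 4.68 CPM against 16.9, 14.2 and 17.4 CPM. Its ratio of IP over input differed from that of HA-Tnrc6a cells by -0.09 ± 0.61, an estimate too wide to place it.

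The last tested comparison was between the experiments. Averaged over the 3 tagged genotypes, 9 of 10 members had a lower log2 ratio of IP over input in experiment 4 than in experiment 3, where 15.4% of all genes were lower. The largest differences were those of Gpr179 (-2.46 ± 0.35), Cenpf (-2.36 ± 0.12), Efs (-2.30 ± 0.20), Rab11fip5 (-2.11 ± 0.22) and Bcar1 (-2.01 ± 0.19). Smaller falls were those of Magel2 (-1.68 ± 0.39), Trp53bp1 (-1.57 ± 0.18), Tubgcp4 (-1.50 ± 0.17) and Fip1l1 (-1.02 ± 0.26), and adjusted p-values ran up to 0.0031 (Fip1l1, edgeR). Nedd9 was at -0.92 ± 0.37 and missed the threshold with an adjusted p of 0.0575 (edgeR). It passed with library totals, a replicate block, all 48 libraries and DESeq2, and in 9 of 36 fits without 1 library. It missed with RLE scaling and with no filter on low counts. Over these fits its adjusted p-values ran from 0.0106 (DESeq2) to 0.133 (edgeR). The median over the 10 was -1.85, against -0.03 over all genes tested. With 2 experiments, these p-values rest on the spread between dishes within each, and not on a spread between repeated experiments. The untagged ratios that chose the members were themselves higher in experiment 3 (median 7.14) than in experiment 4 (3.99). Untagged and tagged IPs of an experiment may share background, so comparisons of the members between experiments are not independent of the choice.

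The step between experiments was of unequal size across genotypes. Its median over the members was -1.85 in HA-Tnrc6a cells, -2.50 in the Ago2 knockout and -1.26 in cells labelled Upf1 knockout. Each member was below 0 in each genotype, and the share of all genes that were so was not counted. Gpr179 had -2.93, -3.04 and -1.43 in that order of genotypes. Fip1l1 had -1.01, -1.88 and -0.15. The difference of the step between genotypes was not tested.

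Levels without a model separated the tagged IPs of the 2 experiments for 7 of 10 members, where 6.11% of all genes were higher in every tagged IP of experiment 3 than in any of experiment 4. Tagged IPs of Bcar1 had a median of 24238 CPM in experiment 3 and 8827 CPM in experiment 4, with no overlap. Those of Gpr179 ran from 116 to 287 CPM and then from 12.9 to 39.3 CPM. Tagged IPs of Cenpf likewise separated, at 3387 to 8055 and 922 to 1542 CPM. The other 3 members overlapped, with 1103 to 4752 and 656 to 2396 CPM for Fip1l1, 5.23 to 70.5 and 4.10 to 17.4 CPM for Magel2, and the ranges given above for Nedd9. Tnrc6a itself also had a lower ratio in experiment 4, by -1.72 ± 0.15 (edgeR adjusted p = 2.64e-09), and whether that moved the members was not tested. In untagged cells the members' difference was -4.90 (Rab11fip5) to -1.60 (Trp53bp1) with a median of -3.82, given as a description. Experiments also differed in depth, which was higher in experiment 4 for both fractions, and the part of depth in this difference was not tested.

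**Figure D5:**
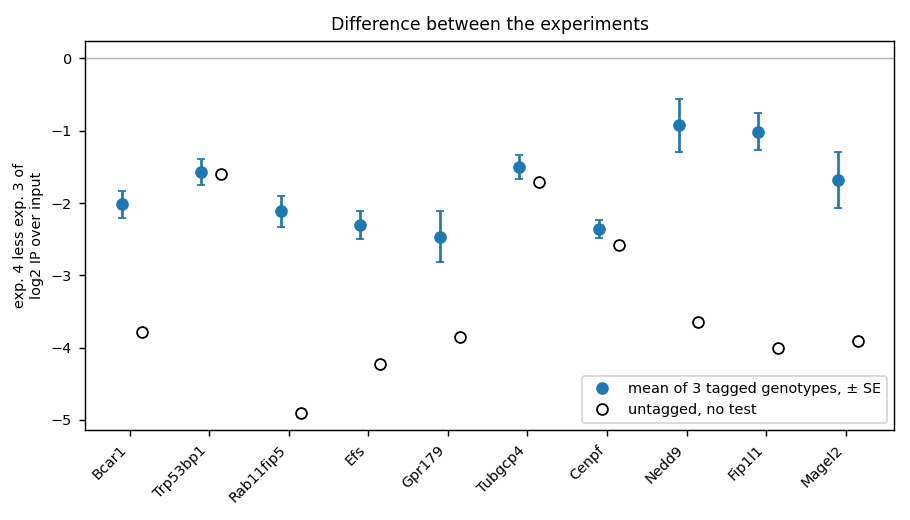
Experiment 4 less experiment 3 of the log2 ratio of IP over input for each member, with the mean of the 3 tagged genotypes ± SE in blue and untagged cells as open circles without a test. Tagged values lie between -2.46 and -0.92, and untagged values between -4.90 and -1.60.

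Of the 53 listed partners, 17 had a higher and 7 a lower ratio in experiment 4, as did 3174 and 3110 of all 20139 genes. The lowest of the partners was Shld3 at -0.78. Among the same 53 genes, 18 were higher and 27 lower in the IPs of HA-Tnrc6a cells, 20 and 20 in the Ago2 knockout, and 19 and 26 in cells labelled Upf1 knockout. Among all 20139 genes these counts were 6864 and 7514, 7177 and 7601, and 6734 and 8031, in that order of genotypes. The highest of the 53 in HA-Tnrc6a cells were Shld3, part of the shieldin complex downstream of 53BP1 (2.61 ± 0.08), and Ndel1, a dynein regulator that binds Cenpf (2.45 ± 0.09). Both lay below Cenpf, the lowest member at 3.92. Recovery differed between the Ago2 knockout and HA-Tnrc6a cells for 19 of the 53 (14 higher, 5 lower) and between cells labelled Upf1 knockout and HA-Tnrc6a cells for 4 (2 higher, 2 lower). Of all genes, 8.95% were higher and 12.2% lower in the first comparison, and 1.44% and 2.53% in the second. In inputs, 5 of the 53 were higher and 4 lower in the Ago2 knockout, against 11.0% and 9.58% of all genes. In cells labelled Upf1 knockout 14 were higher and 18 lower, against 25.3% and 24.6%.

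Across the 16 group means of log2 CPM, each member correlated with the mean of the other 9 at Pearson r = 0.93 (Magel2) to 0.998 (Efs). These points share the input to IP step that chose the members, so r is a description. The most similar genes outside the set were Senp7 (r = 0.97), Ankra2 (0.97), both identifiers of Fam220a (0.96) and Slc35b3 (0.95), which had untagged log2 ratios of 3.21, 3.38, 1.60 and 1.58, and 2.06. The members' gene models were long, with a median of 7386 bases against 3309 over all genes, and 9 of 10 were longer than that median. Efs, at 2917 bases, was the exception.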

How the data were processed

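Total RNA from inputs and HA-bead IPs was sequenced by the submitters with a stranded TruSeq kit, and equal protein went to the beads, per the labels' protocols. The submitters' processing notes name STAR 2.7.3a, bcl2fastq 2.20, GRCm38 and mm10, and the counting tool and its strand setting are not given in the sources used here. The authors deposited raw counts per gene and library in 48 columns, without normalization, and a gene length column in bases. Each gene reached at least 11 counts in some library. Deposited columns headed RPKM were not used. Columns numbered 1 to 3 were taken as experiment 3 and 4 to 6 as experiment 4, an inferred mapping that no label states. Positions and overlaps come from RefSeq's GRCm38.p6 gene table.

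Counts of the 36 tagged libraries were fitted with edgeR 4.0.16 (limma 3.58.1, R 4.3.3) by a robust quasi-likelihood model with TMM scaling and filterByExpr at a minimum count of 10. Each comparison was made inside an experiment and the 2 results were weighted equally, and two-sided p-values were adjusted by Benjamini-Hochberg over 20139 genes, with a threshold of 0.05. SEs are the log2 change over the square root of F. The untagged libraries were fitted apart, for values only. The script was tested on simulated data. Reads carry no molecular identifiers, and no 2 of the 48 libraries held identical counts. The named genes are the members, genes of the fixed family and marker lists, and the nearest genes by untagged ratio or correlation. Members and lists were chosen with earlier results of these data known. Alternatives were RLE scaling, library totals, no filter, DESeq2 1.42.0, other sets of libraries, either experiment alone, a replicate block and each library left out. Contrasts of either experiment alone came from the main fit, so they share its scaling and its estimate of the spread.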

Additional observations from a re-analysis of the deposited data

Results flagged for a closer look

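Each entry here is a difference between groups under the same contrast, found by a test of the difference itself. The ratio of IP over input, averaged over the tagged genotypes, differed between experiment 4 and experiment 3 for 9 members, on the log2 scale by -2.46 for Gpr179, -2.36 for Cenpf, -2.30 for Efs, -2.11 for Rab11fip5, -2.01 for Bcar1, -1.68 for Magel2, -1.57 for Trp53bp1, -1.50 for Tubgcp4 and -1.02 for Fip1l1. As stated above, this comparison between experiments is not independent of the choice of the members. Between cells labelled Upf1 knockout and HA-Tnrc6a cells the ratio of Cenpf differed by -0.52. Groups of 3 libraries were too small to name an outlying library within a group, and fits without 1 library each are given below.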

How the results depend on the processing

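The 10 of 10 members higher in the IPs of each tagged genotype kept that count in every alternative run. This includes each experiment's own contrast in the main fit. No member called in the main fit changed direction in another setting. Fip1l1, called higher in Ago2 knockout inputs only when those groups were fitted alone (0.12), stood at -0.0079 in experiment 4. The number of members lower in cells labelled Upf1 knockout than in HA-Tnrc6a cells, 1 in the report, was 0 with experiment 3 alone, experiment 4 alone, RLE size factors, all 48 libraries or only the groups compared, and 0 to 1 without 1 library each. For inputs, fits of only the groups compared called 4 members in the Ago2 knockout (0 in the report) and 6 in cells labelled Upf1 knockout (2), and experiment 3 alone called 0 of the latter. Single experiments called fewer genes: 2182 and 2544 for recovery in the Ago2 knockout less HA-Tnrc6a (4262 from both experiments), 216 and 244 for cells labelled Upf1 knockout (800), and 2450 and 2411 for Ago2 knockout inputs (4151). The cause was not tested, beyond the smaller number of samples. For recovery in cells labelled Upf1 knockout the split of calls moved with scaling, from 291 higher and 509 lower to 370 and 365 (RLE) and 255 and 911 (library totals). It turned to 583 and 313 with only the groups compared, and again the cause was not tested. Library totals moved the median log2 ratio of all genes from -0.09, -0.05 and -0.13 to -0.39, -0.34 and -0.46, with 5072 genes higher and 10584 lower in HA-Tnrc6a cells. Between experiments, 3174 higher and 3110 lower genes became 3743 and 2568 with library totals and 2539 and 3662 with all 48 libraries, where the majority turned.

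Same-numbered inputs and IPs correlated at a mean r of 0.104 (lowest -0.061, highest 0.509), with 10 of 24 pairs over 0.1. Other-numbered inputs and IPs had a mean r of -0.049. The numbers were not taken as pairs, and a pairing of input and IP within a genotype was not fitted. The replicate block was set by number within an experiment, across genotypes and fractions. With a replicate block the counts of genes were 14411, 14785 and 14803 for IP over input in the 3 tagged genotypes, 4607 and 942 for the recovery differences, 4397 and 10234 for inputs and 6491 between experiments. Of the members, the block added only Nedd9 between experiments (10 of 10). A planned search of the members' protein sequences was not run because no protein table was used here. Depth limits Nedd9 and Magel2, whose inputs had as few as 4 counts.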
